A study of Mus musculus with 24 samples.

Results

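BAF complexes are chromatin remodellers that slide and evict nucleosomes with the energy of ATP, and 10 genes for their subunits are described here across 24 mouse tumours. The genes were chosen by name, with earlier results of these data known. They were Smarca2 and Smarca4 for the alternative ATPases, Smarcb1 and Smarcc1 for core subunits, and Bcl7a and Bcl7b for accessory subunits. Actl6a and Phf10 were taken for subunits of neural progenitors, and Actl6b and Dpf1 for subunits of neurons. Of these 10, 9 had a probe set with a single gene symbol, out of 17097 genes measured in that way, and all 9 were among the 13218 genes bright enough to be tested. Smarca4 was not analysed here. Where a gene had several such probe sets, the brightest on average over the 24 arrays was used, and others above the limit of brightness are given beside it.

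The tumours were excised from mouse cortex, and each was measured on its own array after extraction of total RNA. The cells a tumour grew from expressed a class gene, which was RAB3A for 6 tumours, BC74C for 9 tumours and ZNF668 for 9 tumours. The RAB3A protein is a GTPase on synaptic vesicles, and ZNF668 is a zinc finger protein. BC74C is not an approved gene symbol, and the sources used here do not say whether it stands for Bcl7c, which encodes a further BAF subunit. Normal cortex was not analysed here, and ZNF668 was taken as the group that the other two were set against. By a second label, 4 tumours are HGG (not spelled out), 11 are ependymoma, 5 are TUMOR without a type and 4 are UNKNOWN. HGG tumours number 0 in the RAB3A group, 2 in the BC74C group and 2 in the ZNF668 group, and ependymoma tumours number 2, 6 and 3 in these groups. The strain and age of the mice, and the promoter and cell type in which a class gene was expressed, are not given in the sources used here. Nothing in the labels says that the tumours came from separate animals, so the p-values measure the spread between these samples.

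As background, the composition of BAF complexes changes during development of the mouse brain. Dividing neural progenitors use Actl6a, an actin-like protein, and Phf10, a subunit with paired PHD fingers. When their daughters leave the cell cycle, these are exchanged for the close relatives Actl6b and Dpf1, and the neuronal complex takes part in dendrite growth. Smarcb1 is also a tumour suppressor, whose loss marks rhabdoid tumours in humans.

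Marker lists of cell types differed between tumours. The mean log2 level of a list of 19 mature neuron genes, Snap25 and Rbfox3 among them, was 8.88 ± 0.88 in RAB3A tumours (SD, n = 6), 8.43 ± 1.20 in BC74C tumours (n = 9) and 7.81 ± 1.44 in ZNF668 tumours (n = 9). A list of 22 proliferation genes averaged 6.64 ± 1.59, 7.49 ± 1.15 and 7.36 ± 1.65 in the RAB3A, BC74C and ZNF668 tumours. Of 12 ependymal genes, 9 were above the brightness limit, with Dnah5, Spag6 and Cfap43 below it. The mean over all 12 was 4.90 ± 0.42 in HGG tumours (n = 4) and 4.86 ± 0.27 in ependymoma tumours (n = 11). Single genes went either way. Foxj1, a regulator of motile cilia, averaged 6.32 in HGG and 6.63 in ependymoma tumours, and Rfx3 averaged 8.004 and 8.03. Ak7 averaged 4.77 in HGG and 4.06 in ependymoma tumours, and Tmem212 averaged 4.67 and 4.18. A pair of tumours stood apart: ZNF668 replicate 7 had a neuron list mean of 5.07, against 6.68 to 9.69 in the 22 tumours outside the pair, and ZNF668 replicate 9 had an astrocyte list mean of 7.82, against 9.11 to 11.01, and an endothelial list mean of 7.97, against 5.51 to 6.89. In bulk tumours, fewer cells of a type and less RNA per cell cannot be told apart. The class genes' own mouse transcripts did not pass the test between groups: Rab3a differed by 0.75 on the log2 scale between RAB3A and ZNF668 tumours (limma SE 0.60, adjusted p = 0.631) and Zfp668, the mouse orthologue of ZNF668, by -0.20 (SE 0.16, adjusted p = 0.642). A second, dimmer probe set of Zfp668 had the opposite sign, at 0.48 (SE 0.16, unadjusted p = 0.00797, adjusted p = 0.648 over all probe sets). Whether these probe sets read the introduced genes is not known.

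The promoters of the progenitor and neuronal subunits are printed because these 4 genes are set against each other below. Each runs from 250 bases before to 50 bases after the gene's start in RefSeq (GRCm38.p6), is written 5′ to 3′ on the gene's strand, and has in capitals every GC box (GGGCGG or CCGCCC), every CCAAT box (CCAAT or ATTGG) and every copy of CAGCACC or GGTGCTG, the core letters of the RE1 element to which the repressor REST binds outside neurons. Actl6a lies at chr3:32708296-32708595 on the plus strand, Phf10 at chr17:14961211-14961510 on the minus strand, Actl6b at chr5:137553296-137553595 on the plus strand and Dpf1 at chr7:29303755-29304054 on the plus strand.
Actl6a: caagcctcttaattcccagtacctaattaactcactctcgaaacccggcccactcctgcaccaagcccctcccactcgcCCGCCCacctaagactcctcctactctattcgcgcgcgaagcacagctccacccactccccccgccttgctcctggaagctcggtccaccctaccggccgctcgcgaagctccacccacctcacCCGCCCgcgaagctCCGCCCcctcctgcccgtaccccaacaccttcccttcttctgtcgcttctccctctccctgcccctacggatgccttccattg
Phf10: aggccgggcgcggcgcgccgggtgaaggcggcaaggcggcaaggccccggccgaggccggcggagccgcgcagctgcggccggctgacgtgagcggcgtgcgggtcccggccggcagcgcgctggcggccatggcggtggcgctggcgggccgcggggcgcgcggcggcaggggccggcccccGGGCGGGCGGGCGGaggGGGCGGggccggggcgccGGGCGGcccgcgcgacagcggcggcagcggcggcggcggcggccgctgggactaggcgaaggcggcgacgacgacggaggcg
Actl6b: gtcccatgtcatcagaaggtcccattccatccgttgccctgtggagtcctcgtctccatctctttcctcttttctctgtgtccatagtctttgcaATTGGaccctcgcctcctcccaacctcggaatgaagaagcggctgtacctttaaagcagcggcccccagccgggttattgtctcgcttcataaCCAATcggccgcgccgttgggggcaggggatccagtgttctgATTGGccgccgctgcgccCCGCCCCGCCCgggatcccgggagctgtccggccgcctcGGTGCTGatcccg
Dpf1: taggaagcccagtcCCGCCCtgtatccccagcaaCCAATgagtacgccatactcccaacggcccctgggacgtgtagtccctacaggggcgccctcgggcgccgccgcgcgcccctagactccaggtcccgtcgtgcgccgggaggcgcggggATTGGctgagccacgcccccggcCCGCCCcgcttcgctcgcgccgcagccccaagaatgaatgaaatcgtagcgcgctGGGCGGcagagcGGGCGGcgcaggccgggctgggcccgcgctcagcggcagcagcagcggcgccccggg

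The promoters of the progenitor subunits held GC boxes and no CCAAT box, whereas those of the neuronal subunits held both. Counting overlapping copies, GC boxes numbered 3 in Actl6a and 5 in Phf10, and 2 in Actl6b and 4 in Dpf1. A GC box is found in 35.7% of the 32851 promoters in the table. CCAAT boxes numbered 3 in Actl6b and 2 in Dpf1, and 37.4% of promoters hold one. The RE1 core letters were found in Actl6b alone, with the first letter at base 38 counted from the gene's start, and 7.14% of promoters hold them. On either strand, the letters TATAAA (13.6% of promoters), TTTCGCGC (0.323%), TTTGGCGC (0.514%), CCGGAAGT (3.89%), TTCAGCACC (0.371%) and GGACAGCG (1.26%) were absent from these windows. G and C made up 63.7% of the window in Actl6a, 87.0% in Phf10, 61.7% in Actl6b and 74.0% in Dpf1, against a median of 52.7% over all promoters. A match in letters is a description of the sequence and not a bound site. A promoter was in the table for 9 of the 10 members. In those of the other members the GC box was the single one of these motifs found, with 3 copies in Bcl7b, 2 in Smarca2, 3 in Smarca4, 3 in Smarcb1 and 1 in Smarcc1.

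No subunit differed between the class genes at an adjusted p under 0.05. For RAB3A against ZNF668, limma called 0 of the 9 members and 0.0757% of all 13218 genes, or 10 genes. For BC74C against ZNF668 it called 0 of 9 members and 0.303% of all genes, and for RAB3A against BC74C it called 0 of 9 members and 0 genes in all. At an unadjusted p under 0.05, 1 of 9 members passed for RAB3A against ZNF668, where 9.21% of all genes did, and 1 of 9 for BC74C against ZNF668, where 6.88% did. For RAB3A against BC74C 0 of 9 members passed, and 8.21% of all genes did. The median log2 difference over the members was -0.066, -0.10 and -0.052 in these 3 comparisons, beside -0.045, 0.0047 and -0.037 over all genes tested.

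**Figure D1:**
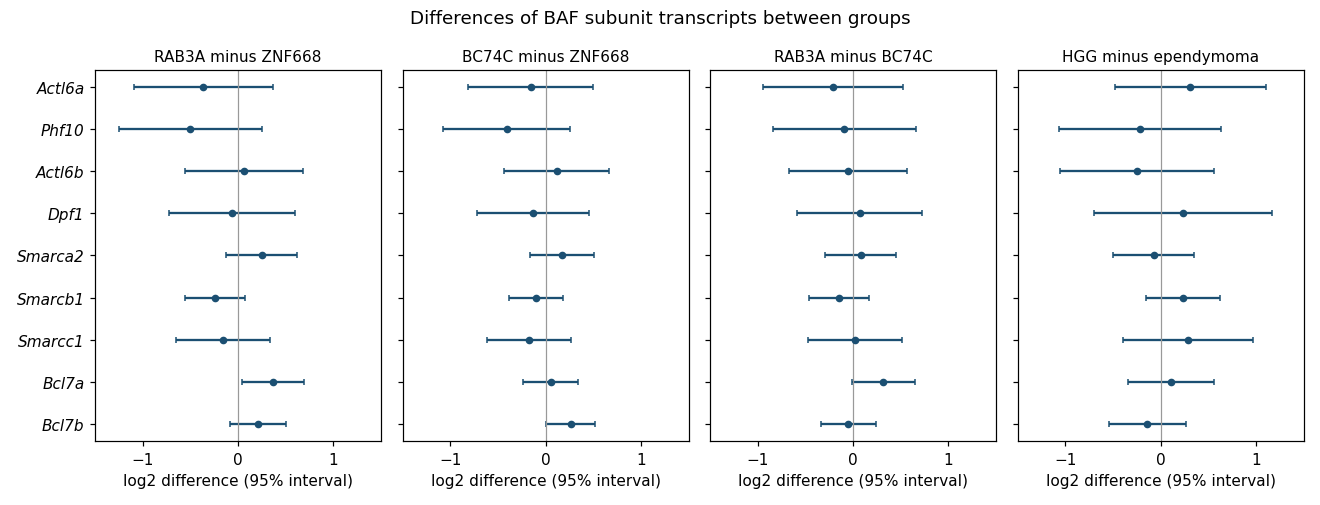
Log2 difference of each of the 9 subunits in 4 comparisons, with 95% confidence intervals from limma; the comparison is named above each panel and positive values are higher in the group named first. The 2 intervals that leave 0 out belong to Bcl7a for RAB3A minus ZNF668 and Bcl7b for BC74C minus ZNF668, and neither gene passed after adjustment over 13218 genes.

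By their brightest probe sets, the progenitor and neuronal subunits all varied more between tumours than most genes. The standard deviation on the log2 scale over the 24 tumours was 0.69 for Actl6a, 0.72 for Phf10, 0.57 for Actl6b and 0.59 for Dpf1, beside a median of 0.44 over all genes tested. For the second, dimmer probe set of Actl6a it was 0.40, below that median. Log2 levels of Actl6a lay between 7.17 and 8.38 in RAB3A tumours, with a median of 7.74, between 7.18 and 8.77 in BC74C tumours, with a median of 8.15, and between 6.48 and 9.15 in ZNF668 tumours, with a median of 8.16. All 3 groups overlapped, and the lowest and the highest tumour of the series were both ZNF668 tumours. The difference in Actl6a was -0.37 for RAB3A minus ZNF668 (SE 0.36, adjusted p = 0.687, 95% interval -1.10 to 0.37) and -0.16 for BC74C minus ZNF668 (SE 0.32, adjusted p = 0.982, interval -0.81 to 0.50). With the neuron list mean as a covariate these values were 0.15 and 0.14.

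Phf10 differed by -0.50 between RAB3A and ZNF668 tumours without passing the test, and by less once the neuron list was a covariate. Its log2 level lay between 7.495 and 9.41 in RAB3A tumours (median 8.46), between 7.64 and 9.78 in BC74C tumours (median 8.59) and between 7.56 and 9.78 in ZNF668 tumours (median 9.34), so that the groups overlapped over nearly their whole ranges. The fitted difference was -0.50 for RAB3A minus ZNF668 (SE 0.36, adjusted p = 0.606, interval -1.25 to 0.25), with 4 of 6 RAB3A tumours below the ZNF668 mean. It was -0.41 for BC74C minus ZNF668 (SE 0.32, adjusted p = 0.943, interval -1.08 to 0.26), with 7 of 9 BC74C tumours below that mean. With the neuron list mean as a covariate the values were -0.046 and -0.15. For RAB3A minus ZNF668 the value was -0.90 in elw tumours (unadjusted p = 0.0320, adjusted p = 0.421) and 0.30 in mmr tumours (adjusted p = 0.99999).

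The neuronal subunits differed little on average between class genes. Actl6b was dim, with an average of 4.30 at the 39.7th percentile of all probe sets, and in 3 of 24 tumours it lay below the brightness limit of 3.76. Its log2 level ran from 3.83 to 4.79 in RAB3A tumours (median 4.23), from 3.52 to 5.12 in BC74C tumours (median 4.31) and from 3.78 to 5.44 in ZNF668 tumours (median 3.95). The groups overlapped fully, with differences of 0.061 for RAB3A minus ZNF668 (SE 0.30, adjusted p = 0.941) and 0.11 for BC74C minus ZNF668 (SE 0.27, adjusted p = 0.986). Dpf1 ran from 5.97 to 6.98 in RAB3A tumours (median 6.65), from 5.33 to 8.29 in BC74C tumours (median 6.33) and from 6.10 to 7.13 in ZNF668 tumours (median 6.69). Its widest spread was in the BC74C tumours, which held both its lowest and its highest value. Its differences were -0.066 for RAB3A minus ZNF668 (SE 0.32, adjusted p = 0.940) and -0.13 for BC74C minus ZNF668 (SE 0.29, adjusted p = 0.983).

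**Figure D2:**
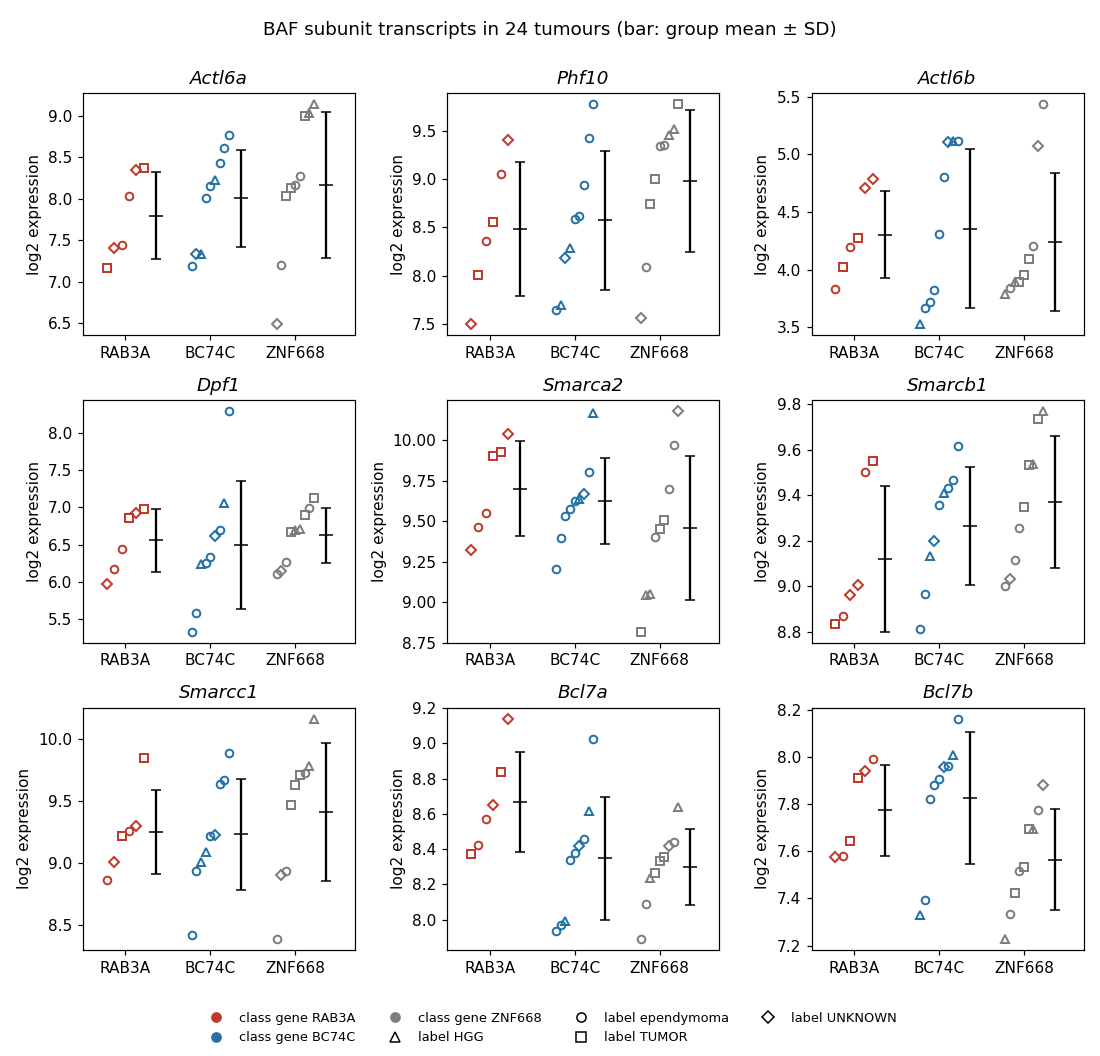
Log2 level of the 9 subunits in each of the 24 tumours, by class gene in the order RAB3A, BC74C, ZNF668, with 1 panel per gene; points are tumours, shaped by tumour label, and the bars show mean and SD. The groups overlap in every panel, and Actl6a, Phf10 and Dpf1 spread over more than 2 log2 units while Bcl7b and Smarcb1 spread over less than 1.

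From tumour to tumour, the progenitor subunits moved together and Actl6b moved the other way, by their brightest probe sets. Actl6a's second, dimmer probe set followed its first with an r of 0.22 and was not set against Phf10 or Actl6b. Across the 24 tumours Actl6a and Phf10 had a Pearson r of 0.87 (Spearman rho 0.87), Actl6a and Actl6b an r of -0.75 (rho -0.76), and Phf10 and Actl6b an r of -0.69 (rho -0.68). The permutation p-values of r were 1e-05, the smallest that 100000 permutations can give, 2e-05 and 0.00021, and after Benjamini-Hochberg adjustment over 24 relations they were 4.0e-05, 6.9e-05 and 0.000458. Without the 2 tumours farthest from the median on the x axis r was 0.86, -0.72 and -0.65, and without the pair that stood apart it was 0.84, -0.73 and -0.66. Among the 18 tumours whose titles begin with elw r was 0.86, -0.80 and -0.80, and among the 6 whose titles begin with mmr it was 0.90, -0.66 and -0.38.

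Within class genes the coupling of Phf10 and the brighter Actl6a probe set was seen in each group. Its r was 0.79 in RAB3A, 0.86 in BC74C and 0.96 in ZNF668 tumours. The opposite course of Actl6a and Actl6b was seen in BC74C and ZNF668 tumours, with r of -0.90 and -0.84, while in RAB3A tumours r was -0.19. These 3 values come from 9, 9 and 6 tumours, and the difference between them was not tested.

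Dpf1 did not follow the other neuronal subunit beyond the spread. Its r with Actl6b was 0.28 (rho 0.36, permutation p = 0.194, adjusted p = 0.233), with Actl6a -0.14 (rho -0.28, p = 0.503, adjusted p = 0.503) and with Phf10 -0.24 (rho -0.26, p = 0.263, adjusted p = 0.300). Its sign was not the same in both title series: with Actl6b r was 0.37 in elw and -0.49 in mmr tumours.

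To set both kinds of subunit side by side, each gene's level was taken as its deviation from its own mean over 24 tumours, since levels of different probe sets cannot be compared. The mean deviation of Actl6a and Phf10 and that of Actl6b and Dpf1 had opposite signs in 18 of 24 tumours. In 10 of these the progenitor subunits were above and the neuronal subunits below their means, and in 8 the reverse held. The count restates the correlations above, uses the brighter probe set of Actl6a, and was not tested. It also joins Actl6b with Dpf1, which did not follow each other beyond the spread. The progenitor deviation minus the neuronal one was lowest, at -1.52, in ZNF668 replicate 9, which is one of the tumours that stood apart, and next lowest, at -1.504, in BC74C replicate 7. It was highest, at 1.48, in BC74C replicate 2. By class gene it averaged -0.22 ± 0.81 in RAB3A tumours (n = 6), -0.06 ± 1.24 in BC74C tumours (n = 9) and 0.21 ± 0.99 in ZNF668 tumours (n = 9), so the spread within each group was wider than the distance between groups.

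The subunits also followed the neuron and proliferation genes, whose lists were chosen with earlier results of these data known. With the mature neuron list, r was -0.85 for Actl6a, -0.76 for Phf10, 0.79 for Actl6b and 0.22 for Dpf1 (rho -0.89, -0.81, 0.87 and 0.25). With the proliferation list it was 0.87 for Actl6a, 0.79 for Phf10, -0.56 for Actl6b and -0.22 for Dpf1 (rho 0.89, 0.80, -0.58 and -0.28). The permutation p-values of r with the neuron list were 1e-05, 6e-05, 1e-05 and 0.304 (adjusted 4.0e-05, 0.00016, 4.0e-05 and 0.317), and with the proliferation list they were 1e-05, 1e-05, 0.00537 and 0.299 (adjusted 4.0e-05, 4.0e-05, 0.00758 and 0.317). Among elw tumours the r with the neuron list was -0.94, -0.86, 0.86 and 0.40 for these 4 genes, and among mmr tumours -0.72, -0.56, 0.68 and -0.85, so that Dpf1 changed sign between the title series. Phf10 and the brighter Actl6a probe set were thus high where proliferation genes were high and neuron genes low, and Actl6b the other way round. Actl6a's second probe set had an r of -0.23 with the neuron list and -0.010 with the proliferation list.

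When the 2 tumours with list means most distant from the median were dropped, the 7 members that passed with the neuron list and the 7 that passed with the proliferation list passed again, and Bcl7a passed with the neuron list as well (r 0.47, adjusted p = 0.0369). Many genes followed these lists. Of the 13218 genes tested, 44.4% had an r with the neuron list of 0.5 or more in either direction and 35.3% did so with the proliferation list, and 7 of the 9 members did so with each. An r with the neuron list as far below 0 as that of Actl6a was reached by 0.643% of genes, and one as far above 0 as that of Actl6b by 6.98%. An r with the proliferation list as high as that of Actl6a was reached by 1.70% of genes. The part of the mixture of neurons and dividing cells in the course of the subunits was not tested.

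**Figure D3:**
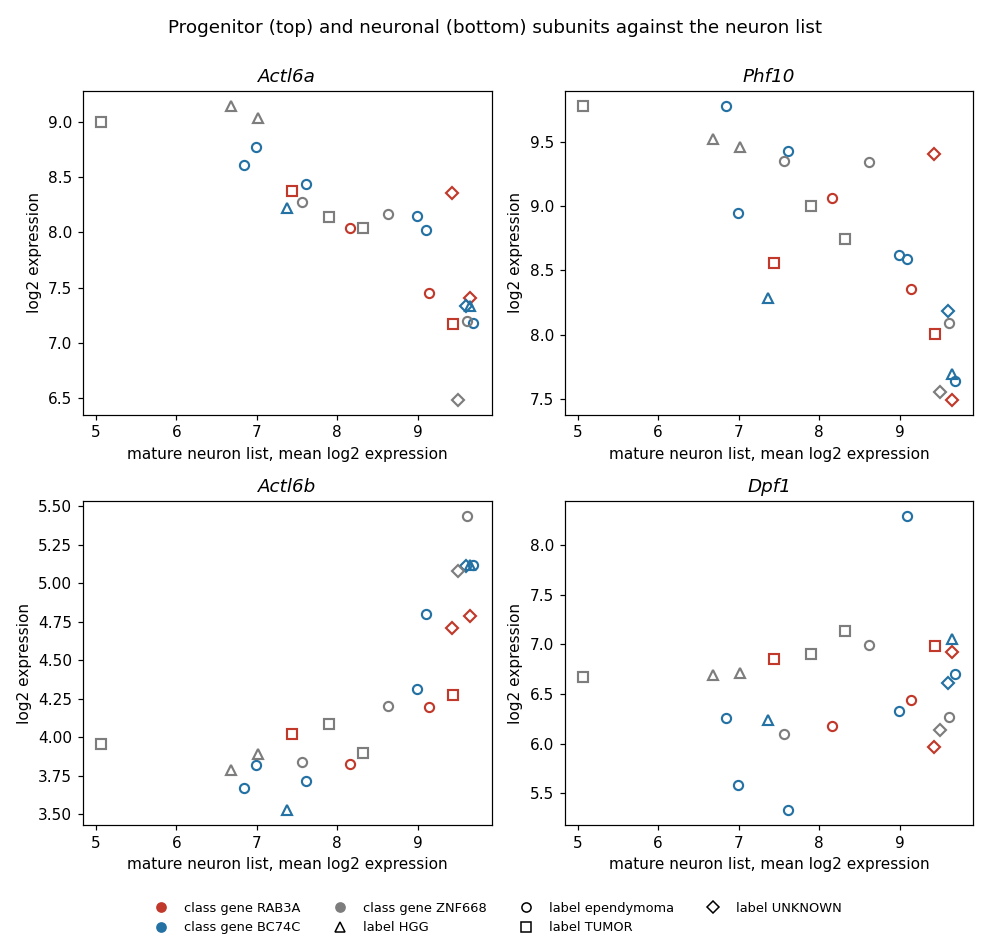
Log2 level of Actl6a, Phf10, Actl6b and Dpf1 in 24 tumours against the mean log2 level of 19 mature neuron genes, with 1 panel per gene, colour by class gene and shape by tumour label. Each gene is shown by its brightest probe set. Actl6a and Phf10 fall (r of -0.85 and -0.76) and Actl6b climbs (r of 0.79) along the axis. Dpf1 shows a wide scatter (r of 0.22).

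Among the ATPases, Smarca2, the subunit also known as Brm, was measured. Its log2 level ran from 9.32 to 10.04 in RAB3A tumours (median 9.73), from 9.20 to 10.17 in BC74C tumours (median 9.63) and from 8.82 to 10.18 in ZNF668 tumours (median 9.45). The groups overlapped, with differences of 0.25 for RAB3A minus ZNF668 (SE 0.18, adjusted p = 0.612) and 0.17 for BC74C minus ZNF668 (SE 0.16, adjusted p = 0.962). Its second probe set gave larger values, of 0.75 for RAB3A minus ZNF668 (SE 0.35, unadjusted p = 0.0411, adjusted p = 0.683 over all probe sets) and 0.24 for BC74C minus ZNF668 (SE 0.31, adjusted p = 0.947). Across tumours Smarca2 went with the neuron genes (r 0.74, rho 0.72, permutation p = 3e-05, adjusted 9.0e-05) and against the proliferation genes (r -0.70, rho -0.69, permutation p = 0.00016, adjusted 0.000384). Within RAB3A tumours its r with the neuron list was 0.017, against 0.74 in BC74C and 0.90 in ZNF668 tumours, a difference that was not tested.

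The core subunits ran opposite to Smarca2 by their brightest probe sets. Smarcb1 varied little, with log2 levels from 8.83 to 9.55 in RAB3A tumours (median 8.98), from 8.81 to 9.61 in BC74C tumours (median 9.36) and from 9.0003 to 9.77 in ZNF668 tumours (median 9.35). Its r with the neuron list was -0.86 (rho -0.86, permutation p = 1e-05, adjusted 4.0e-05), a value that 0.386% of all genes tested reached. With the mean of its probe sets, of which the second lies below the brightness limit, that r was -0.45 (permutation p = 0.0281, adjusted p = 0.0450). Its r with the neuron list was -0.93 in RAB3A, -0.79 in BC74C and -0.90 in ZNF668 tumours, and with the proliferation list it was 0.65 over all tumours (rho 0.70, permutation p = 0.0007, adjusted 0.00129). Smarcc1, a scaffold of the core, ran from 8.86 to 9.85 in RAB3A tumours (median 9.24), from 8.42 to 9.89 in BC74C tumours (median 9.22) and from 8.39 to 10.17 in ZNF668 tumours (median 9.63). Its r was -0.63 with the neuron list (rho -0.67, permutation p = 0.00123, adjusted 0.00211) and 0.67 with the proliferation list (rho 0.67, permutation p = 0.00031, adjusted 0.00062). With its second probe set, also above the brightness limit, r was -0.093 and 0.36, and neither passed a permutation test after adjustment. Between class genes Smarcb1 differed by -0.25 for RAB3A minus ZNF668 (SE 0.15, adjusted p = 0.567) and -0.10 for BC74C minus ZNF668 (SE 0.14, adjusted p = 0.972), and Smarcc1 by -0.16 (SE 0.24, adjusted p = 0.784) and -0.18 (SE 0.21, adjusted p = 0.972).

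By their brightest probe sets, Bcl7a and Bcl7b were the members with an unadjusted p under 0.05. Bcl7a had log2 levels from 8.37 to 9.14 in RAB3A tumours (median 8.61), from 7.94 to 9.02 in BC74C tumours (median 8.38) and from 7.89 to 8.64 in ZNF668 tumours (median 8.33). All 6 of 6 RAB3A tumours lay above the ZNF668 mean, although the groups overlapped. The difference for RAB3A minus ZNF668 was 0.37, or 1.29-fold (SE 0.16, unadjusted p = 0.0285, adjusted p = 0.525, interval 0.042 to 0.70). For RAB3A minus BC74C it was 0.32 (SE 0.16, unadjusted p = 0.0557, adjusted p = 0.608), and for BC74C minus ZNF668 0.051 (SE 0.14, adjusted p = 0.987). Bcl7a's second probe set gave 0.71 for RAB3A minus ZNF668 (SE 0.27, unadjusted p = 0.0152, adjusted p = 0.683 over all probe sets) and 0.37 for BC74C minus ZNF668 (SE 0.24, adjusted p = 0.856).

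Bcl7b ran from 7.57 to 7.99 in RAB3A tumours (median 7.78), from 7.33 to 8.16 in BC74C tumours (median 7.91) and from 7.23 to 7.88 in ZNF668 tumours (median 7.53). The difference for BC74C minus ZNF668 was 0.26 (SE 0.13, unadjusted p = 0.0487, adjusted p = 0.725, interval 0.0016 to 0.52), with 7 of 9 BC74C tumours above the ZNF668 mean. For RAB3A minus ZNF668 it was 0.21 (SE 0.14, adjusted p = 0.585), with 6 of 6 RAB3A tumours above that mean. Bcl7b followed the neuron list with an r of 0.60 (rho 0.68, permutation p = 0.00165, adjusted 0.00264) and the proliferation list with -0.56 (rho -0.57, permutation p = 0.00437, adjusted 0.00656). For Bcl7a the r of 0.37 with the neuron list (rho 0.39, permutation p = 0.0777, adjusted 0.104) and that of -0.28 with the proliferation list (rho -0.25, permutation p = 0.188, adjusted 0.233) did not pass.

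Between tumours labelled HGG and ependymoma, with the class gene as a covariate, limma called 0 of 9 members and 0 of 13218 genes, and at an unadjusted p under 0.05 it called 0 members and 1.73% of all genes. The neuron list averaged 7.68 ± 1.34 in HGG tumours (n = 4) and 8.39 ± 1.02 in ependymoma tumours (n = 11). Actl6a had log2 levels of 7.33, 8.22, 9.15 and 9.04 in the HGG tumours BC74C replicates 7 and 9 and ZNF668 replicates 2 and 8, against 7.18 to 8.77 in ependymoma tumours (median 8.15). By this brighter Actl6a probe set the HGG tumours thus lay on both sides of the ependymoma median, with the ZNF668 tumours above the whole ependymoma range. By its second, dimmer probe set these ZNF668 tumours had 7.09 and 7.02, within the ependymoma range of 6.47 to 7.42. Phf10 had 7.69, 8.28, 9.52 and 9.46 in the HGG tumours, in the order given for Actl6a, against 7.64 to 9.78 in ependymoma tumours (median 8.94). Actl6b had 5.12, 3.52, 3.78 and 3.89, against 3.67 to 5.44 (median 4.19), and Dpf1 had 7.06, 6.24, 6.69 and 6.71, against 5.33 to 8.29 (median 6.27).

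The fitted HGG minus ependymoma differences were 0.31 for Actl6a (SE 0.37, interval -0.48 to 1.10), -0.22 for Phf10 (SE 0.40, interval -1.07 to 0.63), -0.25 for Actl6b (SE 0.38, interval -1.06 to 0.57) and 0.24 for Dpf1 (SE 0.43, interval -0.70 to 1.17). Those of the other members lay between -0.14 for Bcl7b and 0.29 for Smarcc1. Every member had an adjusted p of 0.9998 in this comparison.

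The HGG effect was set apart by class gene, a comparison added after the values were seen, with 2 HGG tumours in each class gene. For Actl6a the HGG minus ependymoma difference was -0.42 in BC74C and 1.21 in ZNF668 tumours, and the difference between these effects was -1.63 (SE 0.63, unadjusted p = 0.0239, adjusted p = 0.591). By its second probe set the ZNF668 HGG tumours had 7.09 and 7.02, and the ZNF668 ependymoma tumours 7.02, 7.23 and 7.42. That probe set was not fitted by class gene, and the rise of Actl6a in ZNF668 HGG tumours rests on the brighter one. For Smarca2 the HGG minus ependymoma difference was 0.38 in BC74C and -0.64 in ZNF668 tumours, with a difference of 1.02 (SE 0.31, unadjusted p = 0.00605, adjusted p = 0.591). Actl6a and Smarca2 were the only members with an unadjusted p under 0.05 in this limma comparison. Among the other members the unadjusted p ran from 0.0646 for Smarcc1 to 0.989 for Dpf1. The difference between the effects was -1.20 for Smarcc1 (SE 0.59) and -0.013 for Dpf1 (SE 0.94). After adjustment limma called 0 of 13218 genes for this difference, and 1079 of the 13218 had an unadjusted p under 0.05.

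Over all 36 pairs of the 9 members, a family added after the values were seen, 17 correlations were positive and 19 negative. Of these, 11 positive and 12 negative ones passed a permutation test after adjustment over the 36. An r of 0.5 or more in either direction was reached by 22 of the 36 pairs, beside 17.3% of all pairs of the 13218 genes tested. The 36 pairs share 9 genes, 7 of which followed the neuron list, as 44.4% of all genes did at that limit, so nothing particular to BAF subunits is read from the count. The members, by their brightest probe sets, fell on either side of this contrast. Smarcb1, Smarcc1, Actl6a and Phf10 correlated positively among themselves, with r of 0.61 to 0.87. They correlated negatively with Smarca2, Bcl7b and Actl6b, with r of -0.87 to -0.59. Smarca2 had its r farthest from 0 with the progenitor subunits, at -0.87 with Phf10 (rho -0.88) and -0.84 with Actl6a (rho -0.77), each with a permutation p of 1e-05 (adjusted 9.0e-05). Dpf1 passed with Bcl7a alone, with an r of 0.54 (permutation p = 0.00719, adjusted 0.0123), but its rho was 0.26 (permutation p = 0.223, adjusted 0.267). That r was 0.34 once the 2 tumours most distant from the median of Bcl7a were dropped, and it was 0.64 in elw and -0.54 in mmr tumours, so it rested on a few tumours. All these pairs share their tumours and their mixture of cells.

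**Figure D4:**
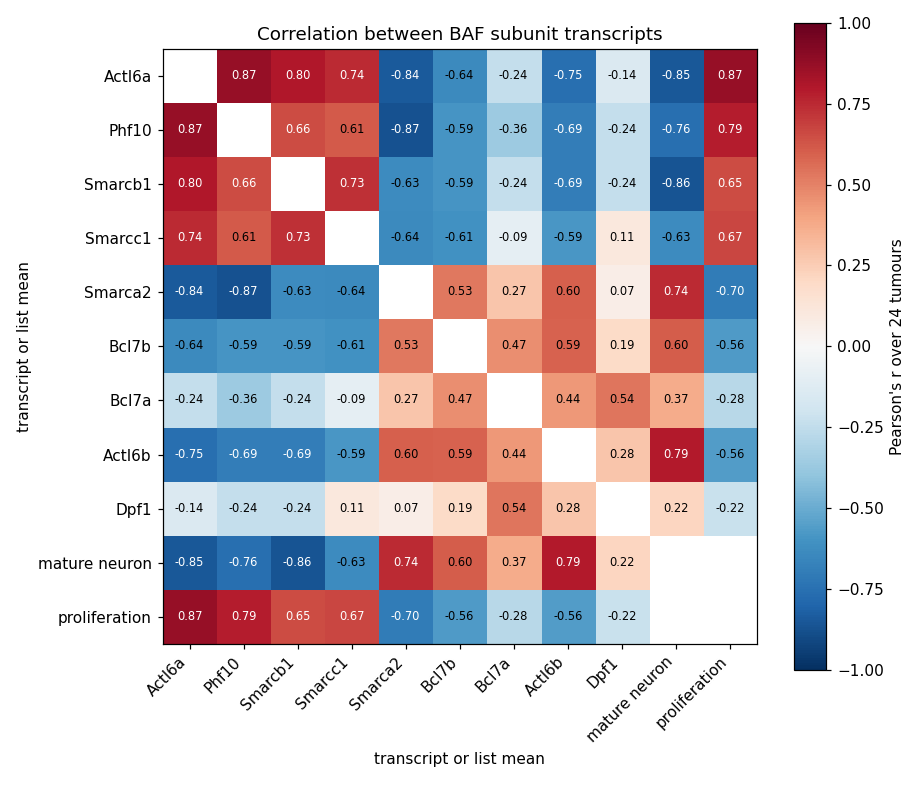
Pearson r over 24 tumours for each pair of the 9 subunits and, in the last rows and columns, for each subunit with the mean of the mature neuron and of the proliferation list, as colour and number. Smarcb1, Smarcc1, Actl6a and Phf10 form a positive block that is negative against Smarca2, Bcl7b and Actl6b. The row of Dpf1 is pale apart from 0.54 with Bcl7a. Each subunit is shown by its brightest probe set.

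The other probe sets above the brightness limit gave the same course for some members and not for others. Smarca2's second probe set followed its first with an r of 0.81 (rho 0.81, permutation p = 1e-05, adjusted 7.5e-05 over 15 relations) and the neuron list with 0.82 (rho 0.84, permutation p = 1e-05, adjusted 7.5e-05). Dpf1's second followed its first with 0.66 (rho 0.58, permutation p = 0.00055, adjusted 0.00206), and Bcl7a's second with 0.57 (rho 0.51, permutation p = 0.00446, adjusted 0.0134).

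For Actl6a the probe sets disagreed. The second, dimmer one had an r of 0.22 with the first (rho 0.077, permutation p = 0.304, adjusted 0.414), of -0.23 with the neuron list (rho -0.24, permutation p = 0.277, adjusted 0.414) and of -0.010 with the proliferation list (rho -0.047, permutation p = 0.962, adjusted 0.962). It gave 0.13 for RAB3A minus ZNF668 (SE 0.20) and 0.44 for RAB3A minus BC74C (SE 0.20, unadjusted p = 0.0372, adjusted p = 0.595 over all probe sets), where the first gave -0.37 and -0.21. For HGG minus ependymoma it gave -0.14 (SE 0.23), where the first gave 0.31. Statements on Actl6a above therefore rest on its brighter probe set. For Smarcc1 and Dpf1 the second probe sets gave 0.0082 and -0.028 for RAB3A minus ZNF668 (SE 0.49 and 0.26). For Smarcc1 the second probe set had an r of 0.35 with the first (rho 0.29, permutation p = 0.0979, adjusted 0.184) and of -0.093 with the neuron list (rho -0.070, permutation p = 0.664, adjusted 0.728). Statements on the course of Smarcc1 above likewise rest on its brighter probe set. Phf10 and Actl6b had 1 probe set each. The probe sets of Bcl7a beyond its second, and the second ones of Bcl7b and Smarcb1, were below the limit.

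**Figure D5:**
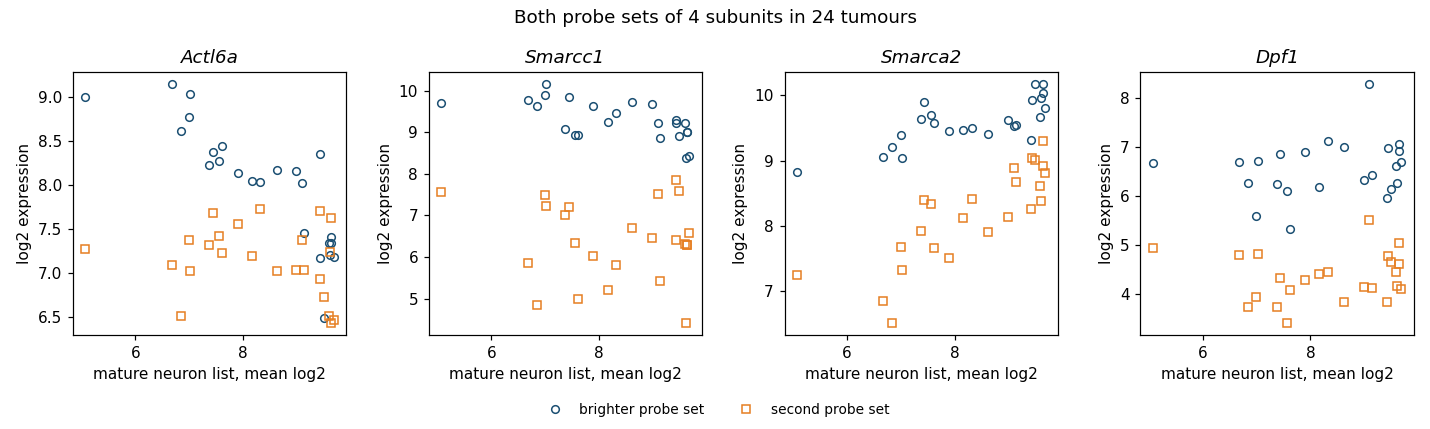
Log2 level of the brighter probe set (blue circles) and the second probe set (orange squares) of Actl6a, Smarcc1, Smarca2 and Dpf1 in 24 tumours, against the mean log2 level of 19 mature neuron genes, with 1 panel per gene. Both probe sets of Smarca2 climb along the axis (r of 0.74 and 0.82), while for Actl6a and Smarcc1 the brighter set falls (r of -0.85 and -0.63) and the second scatters (r of -0.23 and -0.093).

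Tested genes were ranked by their likeness to each of the contrasted subunits, by Pearson r over 24 tumours and as a description. Members and other BAF genes were left out of the ranking, and names from predictions or clones were passed over. The remaining genes with a course most like each subunit differed between them. For Actl6a they were Mcm7, a subunit of the replicative helicase, with an r of 0.95, the RNA-binding protein gene Hnrnpab (0.94), the translation initiation factor gene Eif3d (0.94), Gins1 of the replication fork (0.94) and Eif3l (0.94). For Phf10 they were Emg1, a ribosomal RNA methyltransferase (0.94), the membrane protease gene Adam17 (0.92), Tmod3 (0.91), Sec61b of the protein translocation channel (0.91) and Dhx16 (0.91). For Actl6b they were Amer3 (0.90), the metabotropic glutamate receptor gene Grm8 (0.89), Wdr7 (0.89), Ccser1 (0.89) and Pdxp (0.89). For Dpf1 the values were lower, with Dab1, which relays the reelin signal in migrating neurons, at 0.74, Brinp2 at 0.71, Tmem198 at 0.67, Vstm2b at 0.65 and the chromatin reader gene Brpf1 at 0.64.

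Of 20 further BAF genes, 18 were measured and tested, and none was called by limma between any of the groups. At an unadjusted p under 0.05, 1 of 18 was lower for RAB3A minus ZNF668, 1 of 18 was lower for RAB3A minus BC74C, and 0 passed in the other comparisons. Their median log2 difference was 0.034 for RAB3A minus ZNF668, 0.062 for BC74C minus ZNF668, 0.057 for RAB3A minus BC74C and -0.090 for HGG minus ependymoma. The gene that passed was Bcl7c both times, a close relative of Bcl7a and Bcl7b. Bcl7c had log2 levels from 7.58 to 8.92 in RAB3A tumours (median 8.28), from 8.47 to 9.79 in BC74C tumours (median 9.10) and from 7.83 to 9.38 in ZNF668 tumours (median 8.91), so the RAB3A tumours had the lowest median while overlapping both other groups. Its difference was -0.82 for RAB3A minus BC74C (SE 0.25, unadjusted p = 0.00367, adjusted p = 0.353), -0.54 for RAB3A minus ZNF668 (SE 0.25, unadjusted p = 0.0427, adjusted p = 0.535) and 0.27 for BC74C minus ZNF668 (SE 0.23, adjusted p = 0.944). Its second, dimmer probe set gave 0.26 for RAB3A minus BC74C (SE 0.37) and -0.32 for BC74C minus ZNF668 (SE 0.33), so the sign of both differences depended on the probe set.

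For RAB3A minus ZNF668, beside Bcl7c, the extremes of the moderated t were Bcl11a (1.29, SE 0.72), a transcription factor found with BAF complexes in neurons, Bicral (0.34, SE 0.23) and Smarce1 (-0.44, SE 0.25). For BC74C minus ZNF668 they were Dpf2 (0.13, SE 0.10), Bcl7c, Smarce1 (-0.40, SE 0.22) and Brd7 (-0.30, SE 0.18). For RAB3A minus BC74C they were Bcl11a (1.03, SE 0.72), Smarcc2 (0.33, SE 0.23), Bcl7c and Smarcd3 (-0.29, SE 0.19). For HGG minus ependymoma they were Pbrm1 (0.17, SE 0.16), Brd7 (0.23, SE 0.23), Dpf2 (-0.20, SE 0.11) and Smarcd2 (-0.32, SE 0.19). None of these passed after adjustment.

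The further BAF genes were set against the same lists in a family of 36 relations added after the values were seen. An r of 0.5 or more in either direction was reached by 9 of 18 with the neuron list, beside 44.4% of all genes tested. With that list 5 of 18 correlated positively after adjustment: Bcl11a (r 0.84), Bicral (0.83), Ss18l1 (0.77), Bcl11b (0.74) and Smarcc2 (0.65). Ss18l1 encodes Crest, which replaces Ss18 in the neuronal complex, and Smarcc2 is the counterpart of Smarcc1. The 5 of 18 that correlated negatively were Brd7 (r -0.82), Smarce1 (-0.75), Bcl7c (-0.61), Pbrm1 (-0.59) and Arid2 (-0.46), of which Brd7, Pbrm1 and Arid2 belong to the PBAF form of the complex. The permutation p-values of these 10 lay between 1e-05 and 0.0222 (adjusted 0.00012 to 0.0421). Dpf3 was among the genes that did not pass (r -0.37, permutation p = 0.0773, adjusted 0.107). The value of Bcl7c is that of its brighter probe set, which the second followed with an r of 0.23. No grouping of these genes by form of the complex was tested. With the proliferation list 4 of 18 were positive and 6 of 18 negative after adjustment, and 9 of 18 reached an r of 0.5 in either direction, beside 35.3% of all genes tested.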

How the data were processed

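The authors' deposited table gives log2 expression values of 45141 probe sets, each measured once in every tumour on single-colour arrays. The log2 scale and a common scaling of the arrays were read from the values, whose medians lie between 4.98 and 5.20 in every array. The submitters' processing notes name Partek 6.6; the background correction, normalization and summarisation are not given in the sources used here. RNA was taken up in Trizol, per the labels' protocols. Signal over background could not be assessed for single values, and the number of arrays limits the precision. No 2 arrays were alike beyond an r of 0.984.

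Besides 104 controls, which were dropped, 15588 probe sets had no gene symbol, 551 had several and 28898 had 1. Each gene took its brightest single-symbol probe set, and genes with a mean below the 30th percentile of probe sets (log2 3.76) were left out. Symbols come from the platform annotation, and 28689 probe sets were matched by Entrez identifier to RefSeq's table for GRCm38.p6, the source of the promoters.

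The class genes were compared in 1 limma 3.58.1 model of 24 tumours (R 4.3.3, eBayes with an intensity trend, two-sided, Benjamini-Hochberg over 13218 genes, threshold 0.05). HGG minus ependymoma used 15 tumours with the class gene as a covariate. Correlations used 100000 two-sided permutations over 24 relations, 2 fewer than planned since Smarca4 was not measured. On simulated data with 200 changed genes, changes of 1 and 2 on the log2 scale were recovered in 51% and 90% of cases for RAB3A minus ZNF668, 66% and 94% for BC74C minus ZNF668, 48% and 88% for RAB3A minus BC74C, and 40% and 82% for HGG minus ependymoma.

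The members and gene lists were chosen with earlier results of these data known. Genes named are the members, the class genes' transcripts, the further BAF genes called or with the 2 highest and 2 lowest moderated t per comparison, and the 5 genes most like each contrasted subunit; those named by their correlation with the neuron list were chosen after their values were seen. Added after the values were seen were the analysis of mmr tumours alone, that without the tumours that stood apart, that of other probe sets, all member pairs, the further BAF genes' correlations, the shares of all genes and gene pairs past an r of 0.5, and the HGG effect by class gene. Python 3.11.15, scipy 1.17.1 and matplotlib 3.10.9 were used for the rest.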

Additional observations from a re-analysis of the deposited data

How the results depend on the processing

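No member passed the test under any alternative: the lowest adjusted p was 0.260 over 333 values for RAB3A minus ZNF668, 0.283 over 333 for BC74C minus ZNF668, 0.325 over 333 for RAB3A minus BC74C and 0.652 over 234 for HGG minus ependymoma. Quantile normalization, no filter on dim genes, no intensity trend, fits of the 2 class genes compared and leaving out the pair that stood apart turned no member's sign. The signs of small differences did turn elsewhere, and the cause was not tested. With the mean of all probe sets, Smarcb1 was 0.042 for RAB3A minus ZNF668, 0.0013 for BC74C minus ZNF668 and 0.041 for RAB3A minus BC74C, where Actl6a was 0.12. With the neuron list mean as a covariate, RAB3A minus ZNF668 was 0.088 for Smarcc1, 0.15 for Actl6a and -0.36 for Actl6b, BC74C minus ZNF668 was 0.017 for Smarcb1, 0.14 for Actl6a and -0.13 for Actl6b, RAB3A minus BC74C was -0.014 for Smarca2, 0.0086 for Actl6a and 0.099 for Phf10, and HGG minus ependymoma was 0.059 for Smarca2 and 0.077 for Actl6b. In elw tumours alone Dpf1 was 0.12 for RAB3A minus ZNF668, Smarcc1 -0.017 for RAB3A minus BC74C, and HGG minus ependymoma 0.15 for Bcl7b, 0.046 for Smarca2 and 0.14 for Actl6b. In mmr tumours alone, with 1 BC74C tumour, RAB3A minus ZNF668 was 0.023 for Actl6a, -0.038 for Actl6b and 0.30 for Phf10, BC74C minus ZNF668 was -0.31 for Bcl7a, -0.22 for Bcl7b, 0.049 for Actl6a and -0.78 for Actl6b, and RAB3A minus BC74C was 0.25 for Bcl7b, -0.25 for Smarca2, 0.75 for Actl6b, 0.95 for Phf10 and -0.17 for Dpf1; HGG minus ependymoma was not run there because it could not be fitted. In ependymoma-labelled tumours alone, RAB3A minus ZNF668 was -0.18 for Smarca2, 0.062 for Smarcb1, 0.043 for Smarcc1 and -0.48 for Actl6b, BC74C minus ZNF668 was -0.17 for Smarca2, 0.15 for Smarcb1, 0.28 for Smarcc1, 0.32 for Actl6a and -0.25 for Actl6b, and RAB3A minus BC74C was -0.016 for Smarca2, -0.24 for Smarcc1 and -0.11 for Dpf1. With the title prefix as a block, Smarcc1 was -0.0083 for RAB3A minus BC74C, and HGG minus ependymoma was 0.12 for Bcl7b, 0.031 for Smarca2 and 0.063 for Actl6b. With array weights, Smarcc1 was -0.11 for RAB3A minus BC74C. Leaving out 1 tumour at a time, RAB3A minus ZNF668 ran from -0.036 to 0.21 for Actl6b and from -0.15 to 0.052 for Dpf1, BC74C minus ZNF668 from -0.36 to 0.012 for Dpf1 and from -0.034 to 0.10 for Bcl7a, RAB3A minus BC74C from -0.28 to 0.10 for Phf10, -0.078 to 0.29 for Dpf1, -0.10 to 0.097 for Smarcc1 and -0.16 to 0.043 for Actl6b, and HGG minus ependymoma from -0.33 to 0.040 for Smarca2, -0.45 to 0.099 for Phf10 and -0.27 to 0.018 for Bcl7b.

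The number of genes that limma called over the whole table depended on the setting. The 10 genes of RAB3A minus ZNF668 became 6 with no filter on dim genes, 21 with array weights, 21 in elw tumours and 21 without the pair that stood apart. They became 0 with the neuron list as a covariate (677 at an unadjusted p under 0.05), 0 in mmr tumours (229), 0 in a fit of the 2 class genes (1159) and 0 in ependymoma-labelled tumours (400). The 40 of BC74C minus ZNF668 became 130 with array weights and 63 with the neuron list as a covariate, and 0 in mmr (405 unadjusted) and 0 in ependymoma-labelled tumours (681). The 0 of RAB3A minus BC74C became 1 with no filter, 2 with no intensity trend, with the title prefix as a block, with the mean of probe sets or without the pair that stood apart, and 5 with the neuron list as a covariate. Leaving out 1 tumour at a time gave 0 to 40, 25 to 63 and 0 to 4 genes in these comparisons, and 0 to 0 for HGG minus ependymoma (148 to 855 unadjusted). For RAB3A minus ZNF668 the count was 0 without any 1 of RAB3A replicates 1, 2, 3, 4 or 5, BC74C replicates 6 or 8, or ZNF668 replicates 2, 3, 4, 6 or 8. It was 4 to 6 without BC74C replicates 2, 5 or 9 or ZNF668 replicates 1 or 7, 28 without ZNF668 replicate 9 and 40 without RAB3A replicate 6. For BC74C minus ZNF668 it was 25 or 1 more without BC74C replicate 8 or ZNF668 replicates 1, 3 or 6, and 63 without ZNF668 replicate 9. For RAB3A minus BC74C it was 2 to 4 without RAB3A replicate 6, BC74C replicates 4 or 7 or ZNF668 replicate 9. Correlations that no longer passed were those with the mean of probe sets for Bcl7b (0.38 with the neuron list and -0.30 with the proliferation list) and Smarcc1 (-0.27 with the neuron list), and that of Bcl7b with the proliferation list in elw tumours (-0.46); Bcl7a passed with the neuron list with the mean of probe sets (0.50). No paired analysis was possible because replicates were numbered in accession order, which pairs no tumours.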
